A study of Mus musculus with 764 samples.

Results

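Interleukin-10 is one of several means by which CD4+ T cells restrain other immune cells, and the 7 genes described here encode others: Tgfb1, Lrrc32, Ebi3, Entpd1, Nt5e, Areg and Fgl2. The genes were chosen by name, as known suppressive or tissue-protective mediators, with earlier results of these data known. Shares of all genes given beside them are therefore descriptions and not tests. All 7 had a row in both count tables, which held 23997 gene rows. Their levels, the share of cells in which each was read and their occurrence in the same cells as Il10 and Foxp3 were compared between small intestine and spleen. Cells came from mice carrying an eGFP reporter for IL-10 and an mRFP reporter for Foxp3. All of these mice had received anti-CD3, an antibody that activates T cells and expands IL-10 producers, and no untreated group was analysed here. The labels gave no age, while the study's methods describe young adult littermates matched for age and sex, and the labels do not say whether the small intestine cells were intraepithelial or from the lamina propria, both of which the study's methods isolate. Sorted cells were CD4+ and IL-10+ and included Foxp3+ cells, so both groups share the sort on IL-10 and the treatment, and differ by tissue.

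TGF-beta 1 is secreted in a latent form that must be released before it can signal, and GARP, the product of Lrrc32, holds that form on the surface of regulatory T cells. EBI3 is the shared subunit of interleukin-27 and interleukin-35. CD39 (Entpd1) breaks down extracellular ATP and ADP to AMP, and CD73 (Nt5e) turns AMP into adenosine, which restrains T cells through receptors such as the one encoded by Adora2a. Amphiregulin (Areg) is an EGF-family growth factor with a role in tissue repair, and FGL2 is a fibrinogen-like protein that regulatory T cells can secrete.

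Each sample was 1 cell sequenced with SMART-seq2, a full-length protocol without molecular identifiers. Of 764 cells, 70.3% were kept after low-depth cells and cells called in S or G2M phase had been removed. They comprised 72.1% of the 190 small intestine cells and 400 spleen cells. The spleen cells formed 3 sets defined by plate and well, of which p1a (plate p1, columns 1 to 12) held 33.2%, p1b (plate p1, columns 13 to 24) 36.2% and p2 30.5%. Kept cells had between 162801 and 622997 reads, with set medians from 315920 to 366140. No label named an animal, so each tissue is 1 sample, no comparison has a replicate check and no p-value is given. Tissue and plate position cannot be told apart on p2, where all small intestine cells lay. The T cell genes Cd3e, Cd3d, Cd3g and Cd4 had at least 10 reads in 97.9% to 100% of the cells of every set. Foxp3 was uneven over the spleen sets, with at least 10 reads in 72 of the p1a cells, 19 of the p1b cells, 5 of the p2 cells and 5 of the small intestine cells.

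Between the tissues, Areg and Fgl2 were the members with higher levels in the small intestine, and Lrrc32 was the member with a lower level. Levels are in CPM, a scale on which every cell has the same total of reads, averaged with the same weight for each cell, and a gene was called when its mean differed at least 2-fold in the same direction from all 3 spleen sets, on the scale of CPM + 1. Of the 7 members, 6 passed the filter of a mean of 10 CPM over the 4 sets, and Ebi3, with 5.27 CPM, did not. Areg and Fgl2 were called higher, beside 4.14% of the 8391 genes tested, and Lrrc32 was called lower, beside 10.6%. Lrrc32 passed the filter through p1a, the only set where its mean was above 10 CPM. Tgfb1, Entpd1 and Nt5e met neither rule. The median log2 ratio of the 6 members was 0.24, against -0.23 over all genes tested. Scaling summed reads by TMM moved the median over all genes by 0.17 and DESeq2 size factors moved it by 0.19, so the ratios of the 3 members that were tested and not called are also given relative to that median.

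**Figure D1:**
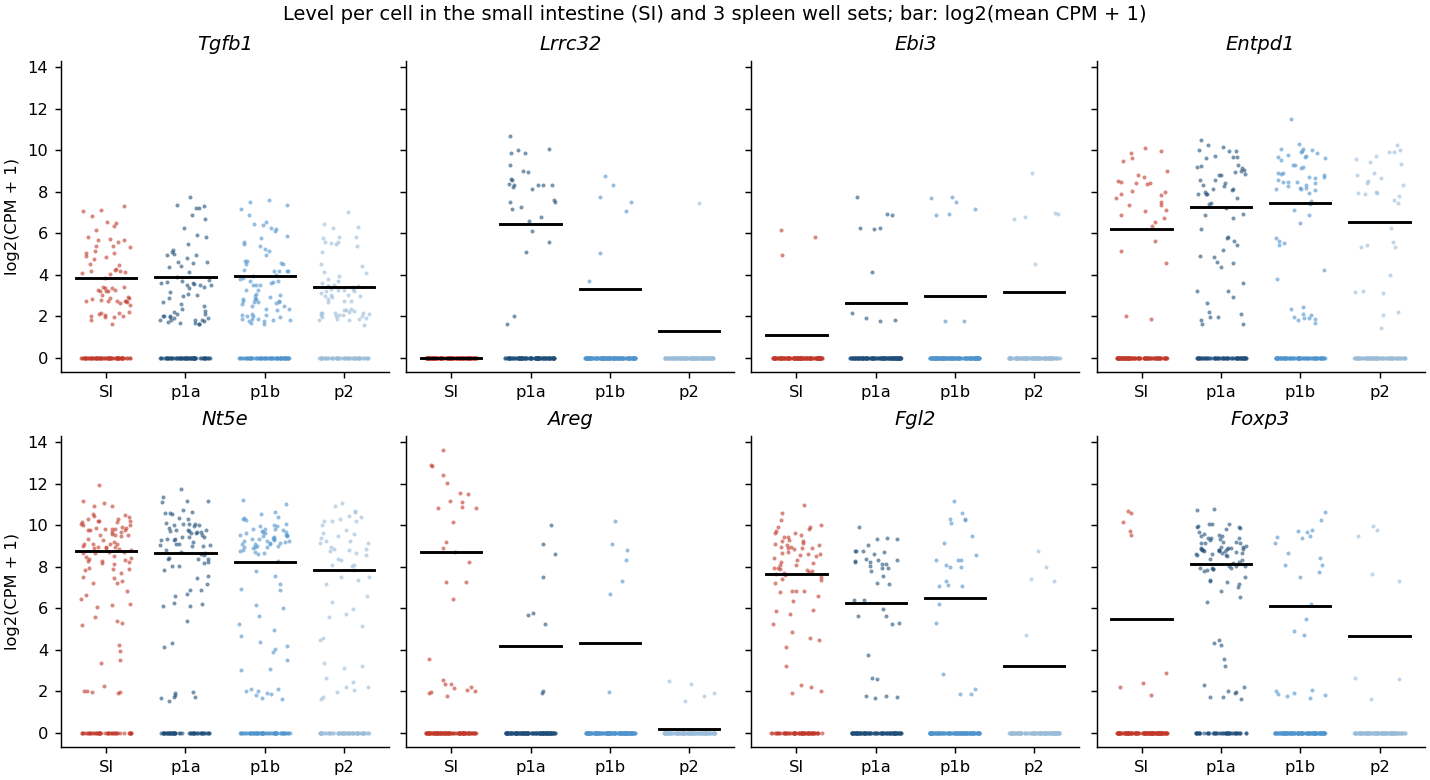
Level of each gene per cell, as log2(CPM + 1) on the vertical axis, in the small intestine (SI) and the spleen sets p1a, p1b and p2. Each point is a cell and each bar is log2 of the mean CPM + 1. Lrrc32 lies at 0 in all small intestine cells, and Areg reaches 12524 CPM in 1 of them.

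Of the members higher in the small intestine, Areg showed the largest ratio. Its mean was 17.4 ± 107.8 CPM in p1a, 19.1 ± 117.5 CPM in p1b and 0.130 ± 0.666 CPM in p2 (SD over cells), and the small intestine mean was 32.5 times that of all spleen cells (12.7 ± 94.3 CPM), with an SD of 1570 CPM over cells. The median cell was at 0 in each set, and the highest cell reached 12524 CPM in the small intestine, 1037 CPM in p1a, 1186 CPM in p1b and 4.67 CPM in p2. High levels were therefore a property of few cells. At least 10 reads were present in 20 small intestine cells (14.6% of that set, 95% exact binomial interval 9.15% to 21.6%). The corresponding numbers were 7 cells in p1a (5.26%), 6 in p1b (4.14%) and 0 in p2, which allows a share of up to 2.46%. The share interval of the small intestine lay above those of p1b and p2 and overlapped that of p1a, which ran from 2.14% to 10.5%. The log2 ratio was 4.49 over p1a, 4.37 over p1b and 8.52 over p2, where only 6 reads in 5 cells were found.

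The 5 small intestine cells with the most Areg reads held 71.02% of the 20448 reads of that tissue. Among cells with at least 10 reads, the median was 1856 CPM in the small intestine, 179.5 CPM in p1a and 386.5 CPM in p1b. These medians come from 20, 7 and 6 cells. Such cells thus held more in the small intestine, while the share interval lay apart from those of p1b and p2 only. Leaving out the highest cell of each set kept the call. Markers of other cell types were looked at because mast cells and epithelium can also make amphiregulin. Kit had at least 10 reads in 11 small intestine cells and in no kept spleen cell, and 4 of the 20 Areg cells were among those 11. The other mast cell genes were at or near 0, with Fcer1a and Mcpt1 at 0 in each set and Cpa3 at most 0.416 CPM. Of 19 markers of mast, B, myeloid and epithelial cells, Cd68 was found in 32.1% of small intestine cells (104.9 CPM), against 8.27% to 15.2% of the cells of the spleen sets (24.9 to 33.4 CPM). Cd79b was found in 8.03% against 1.64% to 2.76%. Of the epithelial genes, Epcam was found in 3.65% against 4.92% to 13.5%. Krt8 went the other way, at 3.65% against 0% in p1a and p1b and 0.820% in p2. Fabp2 was found in 1 small intestine cell and no spleen cell. Vil1 was found in 1 cell each of the small intestine, p1a and p1b, and Krt20 in 1 cell each of p1a and p2. The defining myeloid and B cell genes Lyz2, Emr1 (Adgre1) and Ms4a1 were at 0 in the small intestine. At least 10 reads of any of the 19 were found in 47.4% of small intestine cells, among them 11 of the 20 Areg cells. Without those cells of both tissues, the log2 ratio of Areg over all spleen cells was 5.70, against 4.92 with them, and without the cells that had any of the 16 other than Cd68, Cd79b and Epcam it was 4.79. Areg and Fgl2 were called higher and Lrrc32 lower under both choices.

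Fgl2 had at least 10 reads in more cells than Areg in every set. Among such cells its median was 376.4 CPM in the small intestine, below that of Areg, and 287.3 CPM in p1a, above it. Fgl2 reached a mean of 202.98 ± 334.4 CPM among small intestine cells, 74.4 ± 168.5 CPM in p1a, 88.3 ± 312.2 CPM in p1b and 8.42 ± 48.9 CPM in p2 (SD over cells). The median cell had 3.02 CPM in the small intestine and 0 in each spleen set, and the highest cells reached 1987, 971, 2300 and 426.4 CPM in the same order. The cells of the sets overlapped over most of their range. At least 10 Fgl2 reads were found in 62 small intestine cells (45.3%, interval 36.7% to 53.98%), 32 p1a cells (24.1%, 17.1% to 32.2%), 21 p1b cells (14.5%, 9.19% to 21.3%) and 4 p2 cells (3.28%, 0.900% to 8.18%). The small intestine interval lay above all 3 spleen intervals, and the order of the shares was the same at a depth of 200000 reads per cell, at 43.9%, 22.7%, 14.6% and 3.57%. Log2 ratios of the mean were 1.44 over p1a, 1.19 over p1b and 4.44 over p2. Fgl2 lies inside Ccdc146 without touching its exons, and since the protocol does not mark strand, unspliced reads of that gene and of Fgl2 cannot be told apart where they meet.

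Because Areg and Fgl2 were the members called together, the bases before their start sites are shown. Both are from RefSeq on GRCm38.p6, plus strand, 250 bases ending at the base before the annotated start, 5′ to 3′, at chr5:91139349-91139598 for Areg and chr5:21372423-21372672 for Fgl2. Capitals mark exact matches to the motifs searched, on both strands, which were the cyclic AMP response element (TGACGTCA), the AP-1 site (TGANTCA), the E-box (CACGTG) and the TATA box (TATAAA).
Areg: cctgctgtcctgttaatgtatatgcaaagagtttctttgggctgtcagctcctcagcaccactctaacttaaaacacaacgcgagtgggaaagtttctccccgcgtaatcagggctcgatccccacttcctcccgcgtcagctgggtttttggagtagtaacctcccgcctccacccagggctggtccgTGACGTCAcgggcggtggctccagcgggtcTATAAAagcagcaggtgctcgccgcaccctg
Fgl2: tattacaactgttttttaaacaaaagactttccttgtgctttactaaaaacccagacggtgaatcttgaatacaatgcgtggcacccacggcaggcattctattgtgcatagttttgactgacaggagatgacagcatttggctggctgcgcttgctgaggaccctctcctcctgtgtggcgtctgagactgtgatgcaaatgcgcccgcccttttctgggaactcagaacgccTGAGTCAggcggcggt
The Areg window held a cyclic AMP response element 61 bases and a TATA box 31 bases before the start, and the Fgl2 window held an AP-1 site 16 bases before it. Of 32851 mouse promoters of 300 bases (250 before to 50 after the start), 1.79% held the cyclic AMP response element, 13.6% the TATA box, 7.81% the AP-1 site and 7.15% the E-box. A promoter was found for 6 of the 7 members. None of the 4 motifs had a match in the promoters of Tgfb1, Ebi3, Entpd1 and Nt5e. A match describes these letters only and is not a measured binding site.

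Lrrc32 was read in spleen cells alone. None of the kept small intestine cells had a read, which allows a share of up to 2.19%. The mean was 85.7 ± 241.7 CPM in p1a, 9.06 ± 50.6 CPM in p1b and 1.41 ± 15.6 CPM in p2, with highest cells at 1642, 431.7 and 171.9 CPM. At least 10 reads were found in 27 p1a cells (20.3%, interval 13.8% to 28.1%), 6 p1b cells (4.14%, 1.53% to 8.79%) and 1 p2 cell (0.820%, 0.0208% to 4.48%). The share of p1a thus stood above those of the other spleen sets. Relative to a floor of 3 reads over the small intestine cells together, the summed Lrrc32 level was 505.9-fold in all spleen cells. It was 1302-fold in p1a, 148.6-fold in p1b and 16.1-fold in p2. These folds are not bounds on the tissue difference, because 1 positive cell can carry many reads, up to 586 in p1a. Counted in cells, the limit of 2.19% stands against 8.50% of all spleen cells with at least 10 reads. The p2 value came from 44 reads in 1 cell, and the call across all 3 sets was not met when the highest cell of each set was left out.

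The Lrrc32 difference moved with Foxp3. Of the 34 spleen cells with at least 10 Lrrc32 reads, 31 also had at least 10 Foxp3 reads (91.2%, interval 76.3% to 98.1%), 1 had between 1 and 9 and 2 had none. Within cells that had fewer than 10 Foxp3 reads, Lrrc32 averaged 23.2 CPM in p1a, 0.0963 CPM in p1b and 0 in p2 and in the small intestine. The lower call could not be met there, because p1b and p2 were at or near 0. The log2 ratio over all spleen cells was -2.51 in these cells, against -5.05 in all kept cells. The small intestine held 5 cells with at least 10 Foxp3 reads, and none of them had an Lrrc32 read. The exact interval of 0 in 5 cells reaches 52.2%, so a difference in Lrrc32 among Foxp3-positive cells of the tissues was not detectable with this number of cells.

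**Figure D2:**
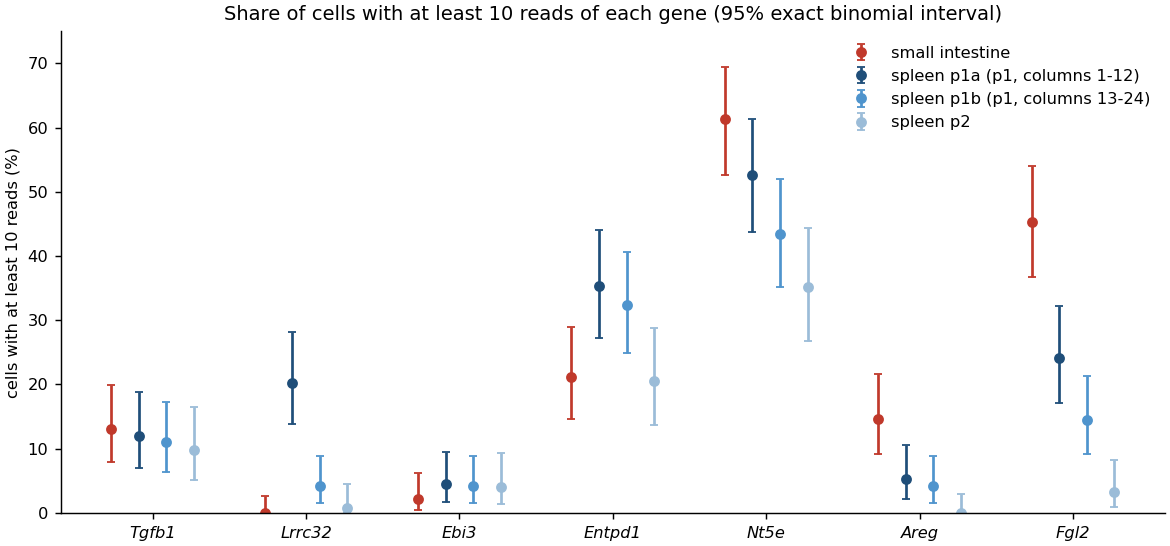
Share of cells with at least 10 reads of each of the 7 genes (vertical axis, percent) in the small intestine and 3 spleen sets, with 95% exact binomial intervals that cover counting error only. Fgl2 falls from 45.3% in the small intestine to 3.28% in p2, Lrrc32 peaks at 20.3% in p1a, and the 4 Tgfb1 shares lie between 9.84% and 13.1%.

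Tgfb1 itself was even over the sets. Tgfb1 averaged 13.1 ± 27.9 CPM among small intestine cells, 13.8 ± 35.05 CPM in p1a, 14.6 ± 33.3 CPM in p1b and 9.44 ± 20.1 CPM in p2 (SD over cells). At least 1 read was found in 48.2%, 48.1%, 52.4% and 52.5% of the cells, but at least 10 reads in 13.1%, 12.03%, 11.03% and 9.84%, and the intervals of the sets overlapped. Tgfb1 was thus broadly read at low counts, with a highest cell of 158.2 CPM in the small intestine against 210.6 CPM in the spleen, whereas 27 of the 29 p1a cells with any Lrrc32 read had at least 10. The log2 ratio over all spleen cells was 0.04, or 0.27 above the median of all genes tested, and its sign changed with the cells used, from -0.48 without cells bearing any of the 19 other markers to 0.44 within p2, while it was positive under the scalings tried.

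Of 18 other genes that handle or transmit TGF-beta, 14 passed the filter, with a median log2 ratio of 0.27 against -0.23 over all genes tested. In the small intestine 4 were called higher and 1 lower, beside 4.14% and 10.6% of all genes tested. Furin, the protease that cuts the TGF-beta precursor, averaged 778 CPM in the small intestine against 122.3 CPM over all spleen cells. Skil and Smad7, both known as inhibitors of the pathway that the pathway itself induces, averaged 446.9 against 74.6 CPM and 49.6 against 12.3 CPM. The receptor gene Tgfbr2 averaged 274.2 against 127.7 CPM. Nrros, which like Lrrc32 anchors latent TGF-beta, was called lower, at 20.6 against 84.2 CPM. Itgb8, a subunit of an integrin that releases active TGF-beta, was not called, with 5.25 CPM there and 35.7, 12.01 and 6.50 CPM in p1a, p1b and p2, the same order over the spleen sets as Lrrc32.

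Ebi3 was read in few cells of each set. At least 10 reads were found in 3 small intestine cells (2.19%, interval 0.454% to 6.27%), 6 p1a cells (4.51%), 6 p1b cells (4.14%) and 5 p2 cells (4.10%, 1.34% to 9.31%), and the intervals overlapped. Means were 1.12, 5.31, 6.79 and 7.87 CPM, and the log2 ratio of -1.84 was not tested by the 2-fold rule because of the low level. The partners that complete interleukin-35 and interleukin-27 were at or near 0. Il12a had at least 10 reads in 0 small intestine cells and 1 spleen cell, and Il27 was listed at 0 in each set. Of 8 genes of the interleukin-12 family and its receptors, 4 passed the filter, with a median log2 ratio of 0.13 against -0.23 over all genes tested. None was called higher, beside 4.14% of all genes tested, and 1 was called lower, beside 10.6%. That gene was Il6st, the gp130 chain used by the receptors of interleukin-27 and interleukin-35, with 63.5 CPM in the small intestine against 362.2 CPM in the spleen. An exon of Ebi3 overlaps Gm16712, and reads of the pair cannot be told apart by strand.

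Neither gene of the adenosine pair was called. Entpd1 averaged 73.6 ± 193.7 CPM among small intestine cells, 153.5 ± 294.7 CPM in p1a, 176.5 ± 371.1 CPM in p1b and 92.5 ± 237.3 CPM in p2 (SD over cells). At least 10 reads were found in 21.2% (interval 14.7% to 28.97%), 35.3% (27.3% to 44.1%), 32.4% (24.9% to 40.7%) and 20.5% (13.7% to 28.7%) of the cells. The small intestine and p2 shares were close, and both p1 shares were higher with intervals that overlapped theirs. The log2 ratio was -1.05 over p1a, -1.25 over p1b and -0.33 over p2, so that Entpd1 missed the rule against p2 alone. Over all spleen cells it was -0.95, or -0.72 relative to the median of all genes tested.

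At a minimum of 10 reads, Nt5e was the member found in the largest share of cells in each set. Nt5e averaged 425.8 ± 587.6 CPM among small intestine cells, 408.5 ± 617.2 CPM in p1a, 301.6 ± 455.5 CPM in p1b and 229.9 ± 448.4 CPM in p2, with median cells at 208.7, 73.8, 3.27 and 0 CPM. At least 10 reads were found in 61.3% (interval 52.6% to 69.5%), 52.6% (43.8% to 61.4%), 43.4% (35.3% to 51.9%) and 35.2% (26.8% to 44.4%) of the cells. Neighbours in this order overlapped, while the small intestine stood above p1b and p2. The log2 ratio was 0.06 over p1a, 0.50 over p1b and 0.89 over p2, none past 2-fold, and 0.43 over all spleen cells, or 0.67 above the median of all genes tested. Per kilobase of exon, the scale on which genes can be compared, Nt5e averaged 49.5 CPM in the small intestine against 13.2 CPM for Entpd1, 53.6 CPM for Fgl2, 340 CPM for Areg, 2.60 CPM for Tgfb1 and 1802 CPM for Il10.

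Cells with both ecto-enzymes were a minority. Entpd1 and Nt5e each had at least 10 reads in 16 small intestine cells (11.7%, interval 6.82% to 18.3%), 20 p1a cells (15.04%, 9.43% to 22.3%), 18 p1b cells (12.4%, 7.53% to 18.9%) and 10 p2 cells (8.20%, 4.0% to 14.6%). The products of the single shares correspond to 17.8, 24.7, 20.4 and 8.81 cells in the same order, so in no set did the number of double-positive cells stand far above that product. Of 13 other genes of extracellular ATP and adenosine, 10 passed the filter, with a median log2 ratio of -1.20 against -0.23 over all genes tested. In the small intestine 1 was called higher and 4 lower, beside 4.14% and 10.6% of all genes tested. The ATP-gated channel gene P2rx7 was the one called higher, at 346.04 CPM against 131.8 CPM in the spleen. The lower ones were Adk (3.07 against 128.7 CPM) and Ada (5.38 against 20.6 CPM), whose enzymes consume adenosine, the nucleoside transporter gene Slc29a1 (45.9 against 219.2 CPM) and Enpp1 (34.4 against 113.03 CPM), which encodes an ectoenzyme that cuts ATP. Adora2a averaged 78.4 CPM there and 44.7, 49.6 and 26.1 CPM in p1a, p1b and p2, and was not called.

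**Figure D3:**
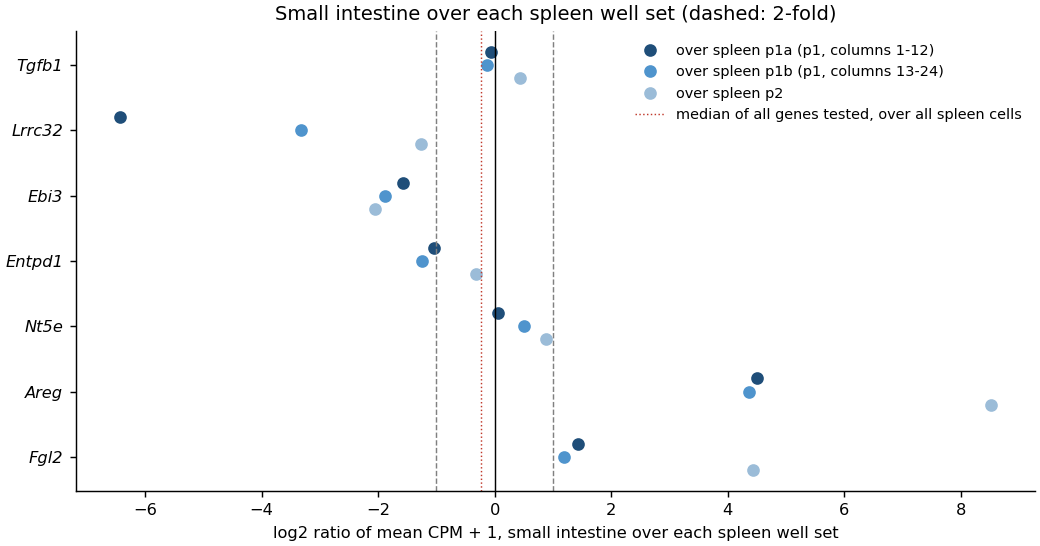
Log2 ratio between the small intestine and each of the 3 spleen sets, on mean CPM + 1 (horizontal axis), for the 7 genes, with dashed lines at 2-fold and a dotted line at the median of all genes tested over all spleen cells (-0.23). Areg (4.37 to 8.52) and Fgl2 (1.19 to 4.44) lie beyond 2-fold on the right for all 3 sets, and Lrrc32 lies beyond it on the left, from -6.44 to -1.27. The Lrrc32 points depend on the pseudocount because its small intestine level is 0.

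Of 11 other EGF-family ligands, receptors and sheddases, 3 passed the filter, with a median log2 ratio of -0.18 against -0.23 over all genes tested. None of the 3 was called, beside 4.14% of all genes tested called higher and 10.6% called lower. Egfr, the receptor of amphiregulin, was listed at 0 in each set. None of 3 relatives and receptors of FGL2 passed the filter.

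The spleen sets differed among themselves in the same members. Between the p1 sets, Lrrc32 was the member at least 2-fold higher in p1a, beside 3.35% of all genes tested, and no member was lower, beside 3.79%. Areg and Fgl2 differed little between these sets, with log2 ratios of -0.13 and -0.24. In p2 against p1b, Lrrc32, Areg and Fgl2 were at least 2-fold lower, beside 5.36% of genes, and no member was higher, beside 4.96%. For Lrrc32, 1.41 CPM from 1 p2 cell stood against 9.06 CPM in p1b. Both values lie below the 10 CPM of the filter, which Lrrc32 passed through p1a. The log2 ratios of Areg and Fgl2 in p2 over p1b were -4.15 and -3.25, and Il10 itself was lower there, at 807 CPM against 1921 CPM. The p2 set had 59.8% of cells with at least 10 Il10 reads, against 87.2% in p1a, 82.1% in p1b and 95.6% in the small intestine. Whether the sets also differed in sort gate or in animals was not tested, since the labels give the plate and the well alone.

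Within p1a, where Foxp3 cells were most numerous, Lrrc32 and Fgl2 were found more often in cells with Foxp3. Of the 72 cells with at least 10 Foxp3 reads, 24 had at least 10 Lrrc32 reads (33.3%, interval 22.7% to 45.4%), against 3 of the 61 other cells (4.92%, 1.03% to 13.7%). Fgl2 was also present in 24 of the 72 (33.3%), against 8 of the 61 (13.1%, 5.84% to 24.2%). The Lrrc32 intervals lay apart and those of Fgl2 overlapped slightly. Areg was present in 6 of the 72 and 1 of the 61, and Ebi3 in 5 and 1, numbers too small to set apart. Nt5e (54.2% against 50.8%), Entpd1 (36.1% against 34.4%) and Tgfb1 (12.5% against 11.5%) differed by a few percentage points between the sides. The Tgfb1 difference depended on the minimum, at 1.02 percentage points with 10 reads and 19.9 with 1 read. By mean level, Lrrc32, Areg and Fgl2 were at least 2-fold higher in the Foxp3 cells, beside 9.76% of the genes tested, and no member was lower, beside 9.02%. The median depth was 368780 reads in the Foxp3 cells and 365399 reads in the others.

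**Figure D4:**
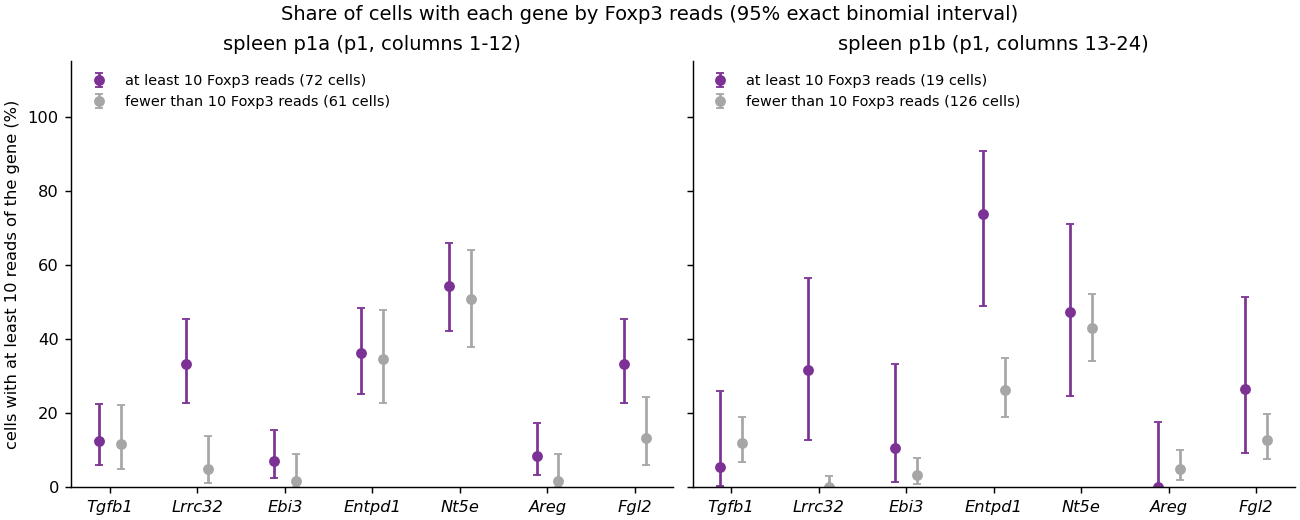
Share of cells with at least 10 reads of each gene (vertical axis, percent) among cells with at least 10 Foxp3 reads (purple) and among the others (grey), in spleen sets p1a (72 and 61 cells) and p1b (19 cells and the rest), with 95% exact binomial intervals. Lrrc32 differs in both sets, at 33.3% against 4.92% and 31.6% against 0%. Entpd1 differs in p1b (73.7% against 26.2%) and not in p1a (36.1% against 34.4%).

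In p1b the picture was the same for Lrrc32 and not for Entpd1. Lrrc32 had at least 10 reads in 6 of 19 Foxp3 cells (31.6%, interval 12.6% to 56.6%) and in none of the others, which allows up to 2.38%. Entpd1 was present in 14 of the 19 (73.7%, 48.8% to 90.8%) against 33 of the others (26.2%, 18.8% to 34.8%), a gap that p1a did not show, and the difference between the sets was not tested. Fgl2 was present in 26.3% of the Foxp3 cells (9.15% to 51.2%) against 12.7% of the others (7.44% to 19.8%), with intervals that overlapped. Its mean level went the other way, at 71.8 CPM in the Foxp3 cells against 90.8 CPM in the others. Areg was present in 0 of the 19 Foxp3 cells, which allows up to 15.8%, and in 6 of the others (4.76%). The Areg numbers were too small to give a direction. In the small intestine the 5 Foxp3 cells included 5 with Nt5e, 4 with Fgl2, 3 with Entpd1 and 2 with Areg. No Foxp3 read was found in 58 of the 62 Fgl2 cells of the small intestine (93.5%), 17 of the 20 Areg cells (85%) and 76 of the 84 Nt5e cells (90.5%), beside 93.4% of all kept cells of that tissue. In the spleen 30 of the 57 Fgl2 cells had at least 10 Foxp3 reads (52.6%, 38.97% to 66.02%), against 4 of 62 in the small intestine (6.45%, 1.79% to 15.7%). Over all kept cells the shares with at least 10 Foxp3 reads were 24% for the spleen (19.9% to 28.5%) and 3.65% for the small intestine (1.20% to 8.31%). Pooled over the spleen, the interval of the Fgl2 cells lay above that of all cells, and the small intestine intervals overlapped. The pooled value mixes sets that differ in both Foxp3 and Fgl2. Within p1a, 75% of Fgl2 cells had at least 10 Foxp3 reads (56.6% to 88.5%), against 54.1% of all cells (45.3% to 62.8%). Within p1b the shares were 23.8% (8.22% to 47.2%) and 13.1% (8.08% to 19.7%), and the intervals overlapped in both sets.

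With Il10, the reads of which were present in most of these sorted cells, co-occurrence could be set out best in p2, where 73 cells had at least 10 Il10 reads and 49 had fewer. Nt5e was present in 31 of the 73 (42.5%, interval 30.97% to 54.6%) against 12 of the 49 (24.5%, 13.3% to 38.9%), and Entpd1 in 19 (26.03%, 16.4% to 37.6%) against 6 (12.2%, 4.63% to 24.8%). In p2 both members were more frequent beside Il10 with intervals that overlapped. By mean level Fgl2 and Lrrc32 were at least 2-fold higher in the Il10 cells, beside 10.8% of genes tested, and no member was lower, beside 9.16%. These calls rested on 3 Fgl2 cells against 1 and on a single Lrrc32 cell. In p1b, Entpd1 was present in 45 Il10 cells (37.8%, 29.1% to 47.2%) against 2 of the 26 others (7.69%, 0.946% to 25.1%), with intervals that lay apart, and in p1a it was present in 37.1% against 23.5%. Nt5e went the other way in these sets, at 50.9% against 64.7% in p1a and 42.9% against 46.2% in p1b, with intervals that overlapped.

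Cell by cell, correlations with Il10 were low. Spearman correlations of log2(CPM + 1) with Il10 were between -0.18 and 0.28 over members and sets, with the highest for Entpd1 in p2 (0.28, Pearson 0.24) and for Nt5e in the small intestine (0.26, Pearson 0.22), each over all kept cells of the set. For Fgl2 it was -0.10 in the small intestine and 0.20 in p1b. With Foxp3, Lrrc32 had the highest values, at 0.30, 0.42 and 0.34 in p1a, p1b and p2. The p2 value rests on the 1 cell of that set with any Lrrc32 read. These are descriptions over cells that share a plate, depth and library preparation.

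Likeness was the mean Spearman correlation over the sets, among 6955 genes with at least 10 reads in at least 10% of kept cells. Genes were named from 0.2 upward. The genes most like Lrrc32 were Foxp3 (0.35), Socs2 (0.27) and Tnfrsf9 (0.22), over 3 spleen sets. Only 1 p2 cell had Lrrc32 reads, so the p2 part of these means rests on that cell. Entpd1 was most like S100a6 (0.34), AW112010 (0.34) and Nkg7 (0.33), and Nt5e most like Sepp1 (0.25), Lag3 (0.23) and Snx2 (0.22). Fgl2 was most like Cxcr6 (0.24), Lamc1 (0.24) and Ifngr1 (0.23), and Ebi3 most like Lig1 (0.25), Pola1 (0.24) and Rfc4 (0.23), which encode DNA replication proteins. The Ebi3 values rest on few cells, since any Ebi3 read was found in 3 small intestine, 11 p1a, 8 p1b and 6 p2 cells. No gene reached 0.2 for Tgfb1 or Areg.

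Most cells held few of the members at once. At least 1 of the 7 genes had at least 10 reads in 89.1% of small intestine, 81.95% of p1a, 75.2% of p1b and 54.9% of p2 cells. Members per cell numbered 1.58 ± 0.94 in the small intestine, 1.54 ± 1.08 in p1a, 1.14 ± 0.89 in p1b and 0.74 ± 0.79 in p2 (SD over cells), and 1.48, 1.41, 1.11 and 0.70 at a depth of 200000 reads. No cell held more than 4. At least 3 members were found in 21 small intestine, 24 p1a, 10 p1b and 3 p2 cells. In p1a the mean was 1.85 in cells with at least 10 Foxp3 reads and 1.18 in the others, and in p1b 1.95 and 1.02. Cells with at least 10 Il10 reads and none of the 7 genes made up 10.7% of the Il10 cells in the small intestine, 17.2% in p1a, 21.8% in p1b and 35.6% in p2.

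**Figure D5:**
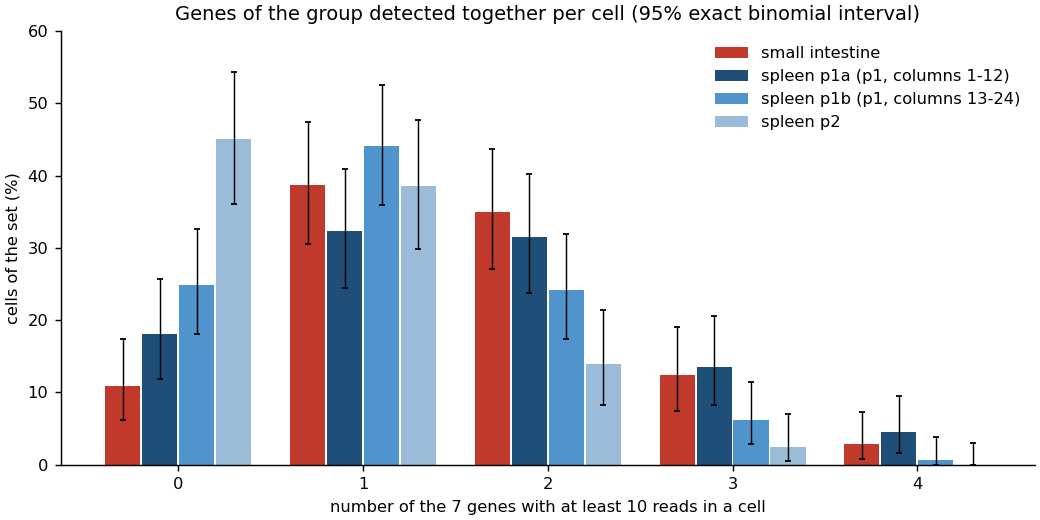
Percent of cells (vertical axis) that held 0 to 4 of the 7 genes at 10 or more reads (horizontal axis), in the small intestine and 3 spleen sets, with 95% exact binomial intervals. The bars at 0 rise from 10.9% in the small intestine to 45.1% in p2, and no cell held more than 4 of the genes.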

How the data were processed

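SMART-seq2 libraries of single IL-10+ CD4+ T cells were aligned by the authors with STAR in a 2-pass mode, and the deposited values are read counts, a column holding the genes of 1 cell. Which tool and annotation made the counts is not given in the sources used here, and the labels and the methods name different mouse builds, so positions given here are those of GENCODE M21 and RefSeq on GRCm38, not of the authors' files. No column was left without a sample, 88 rows joined several genes under 1 name, and no row for Adgre1 existed except under the older name Emr1. Cells were filtered on depth after the study's methods, without their filter on the mitochondrial share. S phase cells were removed as well as G2/M cells, as the study's results describe, although its methods name G2/M cells alone. Cells more than 3 median absolute deviations below the tissue median in log reads or log genes were removed (31 spleen, 19 small intestine), then those that cyclone, from scran 1.30.0 in R 4.3.3, placed in S or G2M, for which 635 of 667 marker genes were found. Doublets were not called, as each well had received 1 sorted cell.

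CPM was computed per cell without the reporter row, with Python 3.11.15, numpy 2.4.6, scipy 1.17.1 and pandas 2.3.3. Log2 ratios used a pseudocount of 1 CPM, which understates changes of low genes. Intervals are 95% exact (Clopper-Pearson) and, like limits for a share of 0 (3 cells of the total), cover counting error only, because PCR copies of 1 molecule are counted as separate reads. Cells were thinned to 200000 reads, which left out 28 of them. Scripts were tested on simulated data. All 7 genes are named, with genes of 5 pathway lists past the 2-fold rule or needed to describe a partner, and up to 3 genes most alike. The members and lists were chosen with earlier results of these data known. Alternatives covered the filters on cells and levels, the pseudocount, the read minimum, thinning, p2 cells alone, and edgeR 4.0.16 TMM and DESeq2 1.42.0 scaling of summed reads. No protein sequence was used here.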

Additional observations from a re-analysis of the deposited data

Results flagged for a closer look

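Cells called S or G2M, which were left out of the comparisons, also held members in shares above what 3 cells would give (8.82% of the 34 small intestine cells and 2.10% of the spleen cells), which is what brought each of these values here. In the small intestine, at least 10 reads were found for Fgl2 in 64.7% of such cells, against 45.3% of the kept cells, and for Nt5e in 58.8%, against 61.3%. Areg was found in 26.5% (exact interval 12.9% to 44.4%, against 14.6%), Tgfb1 in 17.6% (against 13.1%) and Entpd1 in 14.7% (against 21.2%). In the spleen, Entpd1 was found in 49.7% of such cells (41.2% to 58.1%), against 29.8% of the kept cells (25.3% to 34.5%), with intervals that lay apart. Nt5e was found in 38.5% (against 44%), Fgl2 in 16.8% (against 14.2%) and Tgfb1 in 11.9% (against 11%). Ebi3 was found in 6.99% (against 4.25%), Areg in 6.29% (against 3.25%) and Lrrc32 in 4.196% (against 8.50%). None of the 34 small intestine cells had an Lrrc32 read at this minimum.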

How the results depend on the processing

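Across 11 alternatives, Areg and Fgl2 kept higher and Lrrc32 kept lower log2 ratios over all spleen cells, and no called ratio reversed. Using p2 cells of both tissues alone moved the ratio to 0.44 for Tgfb1, -1.27 for Lrrc32, -0.33 for Entpd1, 0.89 for Nt5e, 8.52 for Areg and 4.44 for Fgl2. Leaving out cells with any of the 19 markers of other cell types moved it to -0.48 for Tgfb1. A pseudocount of 0.1 CPM gave -8.34 for Lrrc32 and -2.46 for Ebi3, and 10 CPM gave -2.08 and -0.58, as follows from their low levels. The number of members called higher was 2 under each of the 7 alternatives tried. The number called lower was 1, and became 2 with no filter on low values, where Ebi3 is added, and 0 with a pseudocount of 10 CPM, in cells with fewer than 10 Foxp3 reads, or without the highest cell of each set. The Foxp3 and marker subsets and the rule without the highest cells were chosen after seeing the data. With at least 1 read as the minimum, the difference in share between cells with and without Foxp3 in p1a became 19.9 percentage points for Tgfb1, against 1.02, and with thinning 7.35 for Areg, against 6.69. For Il10 in p2, that minimum gave 10.3 for Tgfb1, 5.26 for Areg and 5.26 for Fgl2, against 6.21, 0 and 2.07; the causes were not tested. Of 140 recomputed shares, 15 moved beyond their interval, and 9 of these were for Tgfb1, whose counts lie near the minimum. No paired analysis was possible because the labels give no replicate that the tissues share and no result comes from a test. Depth limits statements on the 5 Foxp3 cells each of the small intestine and p2, and on members with under 10 cells in a set.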
